A study of Mus musculus with 4 samples.

Results

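Solute carriers are the membrane proteins that move small molecules (sugars, amino acids, nucleosides, vitamins, metals, inorganic ions and metabolic intermediates) across the plasma membrane and the membranes of organelles. Their level in untreated microglial cells and after lipopolysaccharide (LPS) is described here gene by gene. Members are the genes whose symbol is Slc, a family number, the letter a and a member number, with at least 40 read counts summed over 4 libraries. The symbols Slc2a1, Slc7a2, Slc7a11, Slc11a1, Slc11a2 and Slc40a1 were set aside by the rule. Of 24411 genes in the count files, 338 matched the symbol pattern and 148 reached the count threshold. The other 190 comprised 135 genes with 0 counts, 44 with 1 to 9 counts and 11 with 10 or more, of which the highest had 34. Members just inside the threshold were Slc19a2 with 40 and Slc39a4 with 41 counts, and genes just outside it were Slc7a7 with 34 and Slc22a15 with 33 counts. Families whose symbols carry another letter (such as Slc35b1) or another stem (such as Slco4a1) are not members and are described as a separate list.

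RNA was sequenced from BV2 cells, an immortalised mouse microglial line, in which the labels state a CRISPR-Cas9 knockout of PU.1, the ETS transcription factor encoded by Spi1 on which microglia and macrophages depend. All 4 libraries carry that label: 2 were from untreated cells and 2 from cells given LPS, the bacterial cell wall component sensed by TLR4, at 10 ng/ml. Exposure is given as 2 h in the source name and 4 h in the title, and which holds was not settled. Cells were grown in high glucose medium with serum, wild-type cells were not analysed here, and the labels do not say whether the knockout line is 1 clone or whether the libraries came from separate cultures, so p-values measure only the spread between these libraries, which may be technical.

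Gene counts totalled 3256197 to 4502105 per library. Of these unscaled counts the members held 1.36% and 1.30% without treatment, against 1.04% in both LPS libraries. Lower values on this scale are not particular to the members. Scaled by library size only, the median log2 fold change was -0.36 over all genes tested and -0.49 over the members. The TMM factors used for scaling below were 1.16 and 1.10 (untreated replicates 1 and 2), then 0.888 and 0.880 (LPS replicates 1 and 2). Spi1 was counted in every library, at 161 and 164 CPM in the untreated and at 258 and 291 CPM in the LPS libraries (CPM, read counts scaled to library size with TMM factors). A transcript count does not show whether the edited gene makes protein. Of 12 microglia and macrophage markers none was at 0, and their summed level was 2974 to 3069 CPM in the untreated and 3645 to 3909 CPM in the LPS libraries. All 5 neuron and all 4 epithelium markers were at 0, and astrocyte, oligodendrocyte, fibroblast and lymphocyte markers summed to at most 1.39 CPM in any library. Endothelium markers, 3 of 6 at 0, summed to 22.8 to 23.2 CPM and to 34.0 to 49.9 CPM, and the part of these shifts in the results was not tested. In bulk RNA fewer cells of a type and less RNA per cell cannot be told apart.

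Solute carriers work as uniporters, as symporters driven by sodium or proton gradients, or as exchangers that trade one substrate for another. Many sit in organelles: the Slc25 family in the inner mitochondrial membrane, several Slc30 zinc carriers in secretory vesicles and Golgi, and Slc15a3, Slc36a1, Slc38a9 and Slc29a3 in lysosomes. Macrophage-lineage cells that sense LPS are known for reshaping glucose, amino acid, iron, zinc and copper handling.

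Windows around the transcription starts of the members were read for motif letters. RefSeq tables (build GRCm38.p6) held 300-base windows for 112 of the 148 members, 152 windows in all, and 32851 windows over all genes. Stretches of 250 bases (230 before and 20 after the start, on the strand of the gene) are shown for 4 members whose values follow: Slc31a2, the member with the largest rise among those with a window and no match to any motif searched, Slc39a1, Slc30a4 and Slc1a4. Capitals mark a match to an NF-kB site in Slc39a1, to the metal response element TGCGCNC in Slc30a4 and to the ATF4 element TGATGNAA in Slc1a4, read on either strand.
Slc31a2, chr4:62286199-62286448, plus strand: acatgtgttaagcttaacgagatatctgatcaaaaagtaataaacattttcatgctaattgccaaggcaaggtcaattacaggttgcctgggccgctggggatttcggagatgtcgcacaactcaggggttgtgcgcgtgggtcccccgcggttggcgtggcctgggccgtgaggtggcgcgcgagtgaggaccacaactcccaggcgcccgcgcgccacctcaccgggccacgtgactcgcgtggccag
Slc39a1, chr3:90247962-90248211, plus strand: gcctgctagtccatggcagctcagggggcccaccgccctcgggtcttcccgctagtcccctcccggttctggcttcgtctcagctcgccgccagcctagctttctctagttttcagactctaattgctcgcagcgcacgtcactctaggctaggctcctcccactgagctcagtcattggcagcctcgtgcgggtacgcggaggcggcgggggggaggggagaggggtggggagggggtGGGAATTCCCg
Slc30a4, chr2:122702644-122702893, minus strand: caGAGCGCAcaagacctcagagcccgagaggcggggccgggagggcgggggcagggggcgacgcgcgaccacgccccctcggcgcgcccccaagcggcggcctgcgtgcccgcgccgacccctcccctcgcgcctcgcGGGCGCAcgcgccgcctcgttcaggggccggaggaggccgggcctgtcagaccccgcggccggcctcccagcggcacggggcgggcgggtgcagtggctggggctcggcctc
Slc1a4, chr11:20332694-20332943, minus strand: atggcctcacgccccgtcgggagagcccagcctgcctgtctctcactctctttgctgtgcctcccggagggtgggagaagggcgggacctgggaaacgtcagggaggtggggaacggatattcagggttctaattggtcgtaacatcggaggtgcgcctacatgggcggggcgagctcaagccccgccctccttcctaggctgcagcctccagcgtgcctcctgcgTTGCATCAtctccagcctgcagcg
The metal response element letters were in 24.3% of the members' windows against 15.4% of all windows of that length. By gene they were found in 11 of 31 members that rose, 13 of 40 that fell and 9 of 40 that did not pass. A by-gene share over all genes was not computed. The percentages count each window of a gene separately, also where windows overlap, and the GC content of windows was not compared. NF-kB matches were in 5.92% of the members' windows against 4.51% of all, an ISRE in 1.97% against 3.44%, ATF4 letters in 1.97% against 3.97%, the CLEAR box (TCACGTGA) in 2.63% against 0.974% and a PU box (GAGGAAGT) in 1.32% against 3.2%. Both strands were searched, matches capitalised in 1 window do not overlap each other, and a match is a description of letters, not of binding.

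Of the 147 members that passed edgeR's expression filter (Slc19a2 did not), 88 or 59.9% differed between LPS and untreated libraries at an adjusted p below 0.05, where 51.9% of all 9992 genes tested did. The 38 that rose are 25.9% of the members (26.6% of all genes), and the 50 that fell are 34.0% (25.3% of all genes). At a change of at least 2-fold, 9 members rose (6.12%, all genes 9.47%) and 17 fell (11.6%, all genes 7.73%). The median log2 fold change, LPS against untreated, was -0.13 over the members and 0.000629 over all genes tested. Scaled by library size only, which moves the median of all genes to -0.36, 97 members or 66.0% passed, against 61.6% of all genes. Of these 21 rose and 76 fell (14.3% and 51.7%, against 13.8% and 47.8% of all genes). With DESeq2 61 members passed (41.5%, all genes 33.3%). There 28 rose and 33 fell (19.0% and 22.4%, against 18.4% and 14.9%). Members that fell had a median transcript GC content of 53.45%, those that rose 49.2% and those that did not pass 50.1%. Over all genes tested these medians were 52.8%, 46.6% and 48.7%. With GC-corrected offsets 82 members passed (55.8%, all genes 49.3%), of which 40 rose and 42 fell (27.2% and 28.6%, against 26.6% and 22.7%). Of the 88 calls, 52 were kept under all 14 alternative settings, 20 rises and 32 falls. By the mouse annotation GENCODE vM21, exons of 9 members overlap another gene on the same strand (among them Slc5a3, Slc10a3, Slc16a6, Slc25a51, Slc35a3, Slc39a2 and Slc39a7), so their counts are uncertain.

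Beside 26.6% of all genes tested that rose and 25.3% that fell, the classes read as follows. In the amino acid and peptide class 15 of 24 members (62.5%) fell and 5 (20.8%) rose. That class had a median of 77.0 CPM and a median GC content of 53.4%, against 31.4 CPM and 49.3% over all genes tested. Only 16.7% of it did not pass, against 48.1% of all genes. With GC-corrected offsets 12 of its members fell, where 22.7% of all genes did. In the metal and haem class 10 of 23 (43.5%) rose and 3 (13.0%) fell. Among 34 mitochondrial carriers 11 (32.4%) fell and 5 (14.7%) rose, the falls not far from the share of all genes. Among 12 tested carriers of nucleosides, vitamins and choline 6 (50%) fell and 2 (16.7%) rose. Class medians ran from -0.49 in the amino acid class to 0.26 in the organic acid class. These are counts of genes within 1 comparison, and a difference between classes was not tested.

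**Figure D1:**
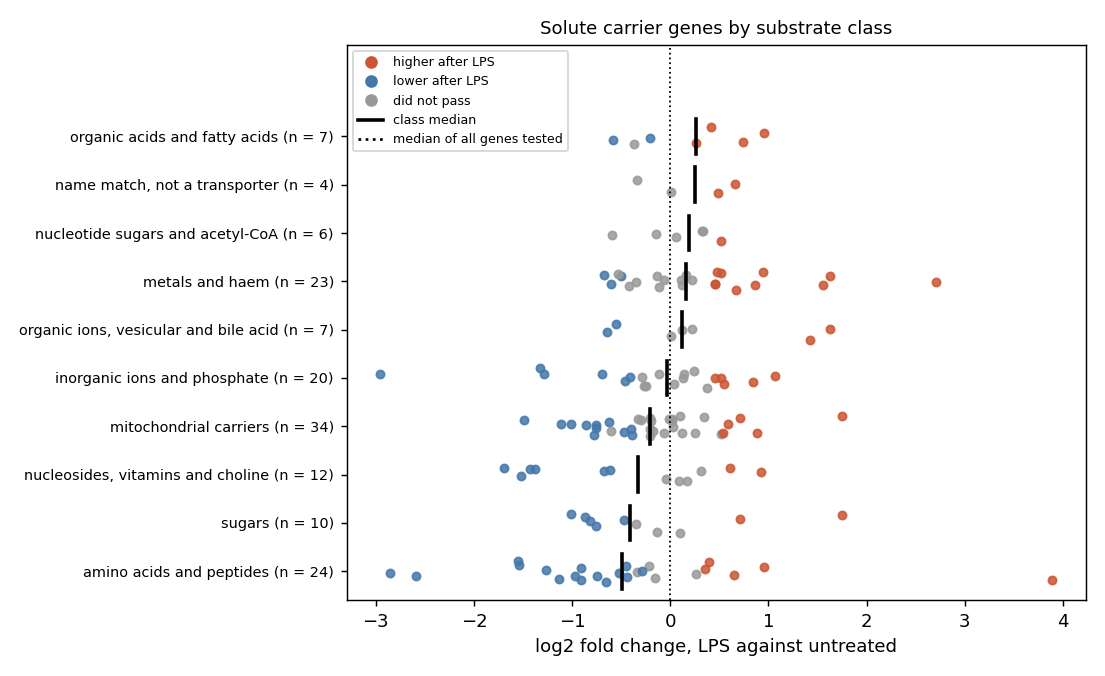
Each point is 1 of the 147 members tested, placed by its log2 fold change (LPS against untreated, horizontal axis) within its substrate class (vertical axis, jittered), coloured by call at an edgeR adjusted p below 0.05. Thick bars are class medians and the dotted line is the median of all genes tested. The amino acid class has the lowest median, -0.49, and holds the largest rise, Slc15a3 at 3.89.

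Several amino acid carriers of the plasma membrane fell after LPS. Slc38a2, the sodium-coupled neutral amino acid transporter SNAT2, was at 559.8 and 551 CPM untreated and 263 and 243 CPM with LPS. Both LPS libraries lay below both untreated ones, at 45.5% of the untreated mean (log2 fold change -1.14 ± 0.09, edgeR adjusted p = 4.14e-16). With 2 libraries per group, values can lie apart without a treatment effect. The share of all genes tested whose groups lie apart is not given here. Each value after ± is an approximate standard error (SE) on the log2 scale. Slc1a5, the glutamine and neutral amino acid exchanger ASCT2, was at 191 and 171 CPM untreated and 77.6 and 72.9 CPM with LPS, and the groups did not overlap (log2 fold change -1.27 ± 0.10, edgeR adjusted p = 5.56e-15). Its relative Slc1a4, the alanine, serine and cysteine exchanger ASCT1 whose start window is shown above, was at 22.4 and 23.9 CPM untreated and 9.01 and 6.98 CPM with LPS. That is 34.5% of the untreated mean, again without overlap (log2 fold change -1.54 ± 0.22, edgeR adjusted p = 1.03e-07). The cationic amino acid transporter Slc7a1 fell to 63.7% (log2 fold change -0.65 ± 0.10, edgeR adjusted p = 6.63e-07), and the taurine transporter Slc6a6, at 343 and 366 CPM in untreated cells, to 53.1% (log2 fold change -0.91 ± 0.09, edgeR adjusted p = 4.06e-12). Slc38a1, the other broad sodium-coupled glutamine carrier, was at 261 and 277 CPM untreated and 254 and 229.8 CPM with LPS and did not pass (log2 fold change -0.15 ± 0.09, edgeR adjusted p = 0.145).

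Heteromeric exchangers pair a light chain that carries the substrate with a heavy chain that brings it to the surface. Slc7a5, the light chain LAT1 for leucine and other large neutral amino acids, was at 105 and 110.1 CPM untreated and 40.2 and 33.7 CPM with LPS. Every LPS value was below every untreated value, at 34.2% of the untreated mean (log2 fold change -1.55 ± 0.13, edgeR adjusted p = 5.78e-15). Slc7a6, the y+LAT2 light chain, fell less, to 59.4% (log2 fold change -0.75 ± 0.09, edgeR adjusted p = 2.35e-09). The heavy chain partner of both, Slc3a2, was at 339 and 376 CPM untreated and 457 and 457 CPM with LPS and rose (log2 fold change 0.36 ± 0.08, edgeR adjusted p = 0.00037). Slc3a2 was not called in 2 alternatives (adjusted p = 1 with library size only and 0.0687 without untreated replicate 1), and scaled by library size only its log2 fold change was 8.27e-05. A further light chain, Slc7a8 (LAT2), was at 160.5 and 173 CPM untreated and 263 and 259 CPM with LPS and rose with groups apart (log2 fold change 0.65 ± 0.09, edgeR adjusted p = 2.81e-08). Slc43a2, a large neutral amino acid transporter that needs no heavy chain, was at 59.1 and 49.8 CPM untreated and 42.3 and 37.6 CPM with LPS and fell (log2 fold change -0.45 ± 0.13, edgeR adjusted p = 0.00402), lost in 3 alternatives (adjusted p = 0.09 with DESeq2, 0.0754 with GC-corrected offsets and 0.157 without untreated replicate 1).

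Slc36a2 and Slc6a9 had the largest falls of the class. Slc36a2, a proton-coupled transporter of glycine and proline, was at 11.3 and 10.2 CPM untreated and 1.73 and 1.21 CPM with LPS, all low levels. Its LPS libraries held 5 and 4 counts, at 13.8% of the untreated mean (log2 fold change -2.86 ± 0.40, edgeR adjusted p = 3.64e-08). The glycine transporter Slc6a9 was at 23.5 and 21.7 CPM untreated and 3.81 and 3.64 CPM with LPS and fell to 16.6% (log2 fold change -2.59 ± 0.27, edgeR adjusted p = 1.36e-11). Slc6a17, a vesicular neutral amino acid transporter, was at 98.7 and 96.4 CPM untreated and 53.7 and 46.4 CPM with LPS and fell (log2 fold change -0.97 ± 0.12, edgeR adjusted p = 2.08e-09). In the same family the creatine transporter Slc6a8 was at 12.2 and 15.3 CPM untreated and 26.3 and 26.7 CPM with LPS and rose (log2 fold change 0.96 ± 0.19, edgeR adjusted p = 2.89e-05). Slc6a12, which carries betaine and GABA, was at 84.1 and 84.0 CPM untreated and 109 and 112 CPM with LPS and rose (log2 fold change 0.39 ± 0.11, edgeR adjusted p = 0.00171), a call lost in 1 alternative (adjusted p = 0.826 with library size only).

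Lysosomal amino acid and peptide carriers did not move together. Slc15a3, a proton-coupled transporter of histidine and of small peptides, including bacterial muramyl peptides, in endolysosomes, was at 48.4 and 51.8 CPM untreated and 749.9 and 731 CPM with LPS. The LPS mean was 14.8 times the untreated mean and the groups were far apart (log2 fold change 3.89 ± 0.10, edgeR adjusted p = 4.06e-35). It was the largest change of any member and was called under all 14 alternatives. Its paralog Slc15a4, with the same kind of substrates, was at 58.3 and 63.0 CPM untreated and 39.5 and 49.2 CPM with LPS and fell (log2 fold change -0.44 ± 0.13, edgeR adjusted p = 0.00387), a call lost in 4 alternatives (adjusted p = 0.0759 with DESeq2, 0.161 with GC-corrected offsets, 0.0591 without untreated replicate 2 and 0.0757 without LPS replicate 1). Slc36a1, the proton-driven exporter of small amino acids from lysosomes, was at 59.9 and 61.7 CPM untreated and 33.3 and 31.6 CPM with LPS and fell to 53.3% (log2 fold change -0.91 ± 0.13, edgeR adjusted p = 1.34e-07). Slc38a9, the lysosomal arginine-sensing transporter of the mTORC1 machinery, was at 19.3 and 20.3 CPM untreated and 13.5 and 13.96 CPM with LPS, and Slc38a7, a lysosomal glutamine exporter, was at 77.6 and 99.1 CPM untreated and 74.2 and 70.1 CPM with LPS. Both passed as lower at adjusted p = 0.0258 and 0.0397 in edgeR, and both calls rest on the setting: Slc38a9 was not called in 5 alternatives (adjusted p = 0.224 with DESeq2, 0.0669 without untreated replicate 1, 0.11 without untreated replicate 2, 0.0745 without LPS replicate 1 and 0.0658 without LPS replicate 2) and Slc38a7 in 4 (adjusted p = 0.213 with DESeq2, 0.695 with GC-corrected offsets, 0.614 without untreated replicate 2 and 0.107 without LPS replicate 2). Slc38a10, Slc38a6 and Slc36a4, named here by family and not as lysosomal carriers, did not pass. Their log2 fold changes were -0.21, 0.26 and -0.34.

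**Figure D2:**
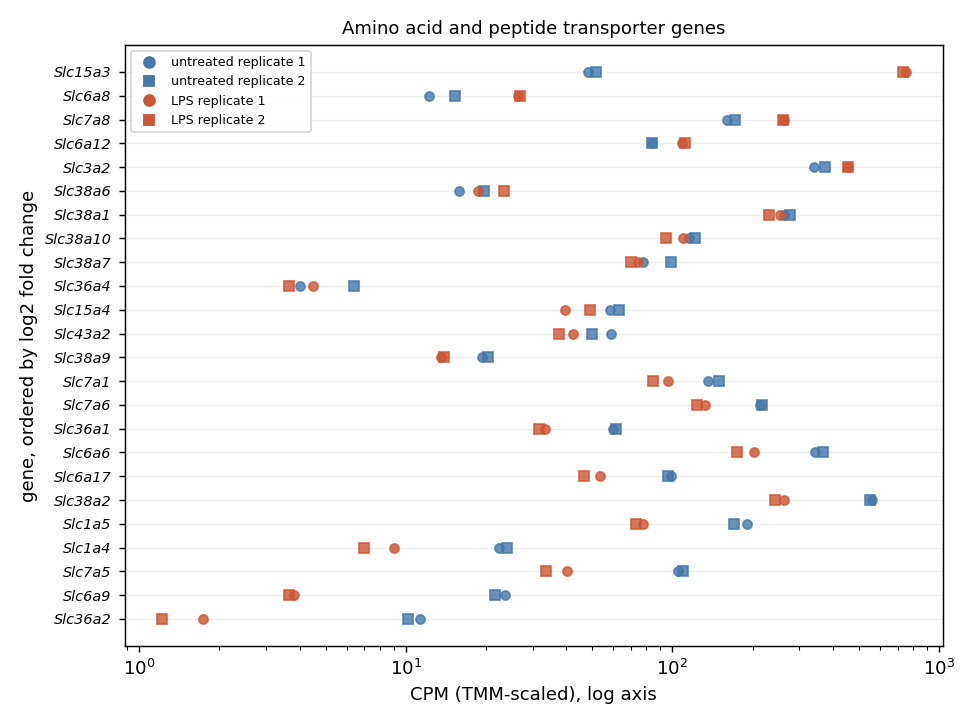
CPM of the 24 amino acid and peptide transporter genes in each library (log axis), genes ordered by log2 fold change from the largest fall at the bottom to the largest rise at the top; circles are replicate 1, squares replicate 2, blue untreated and orange LPS. Slc15a3 stands alone with LPS values near 740.3 CPM (mean) against 50.1 CPM, while 15 of the 16 genes from Slc36a2 up to Slc38a7 passed as lower, Slc36a4 being the exception.

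Copper carriers both rose. Slc31a2, the endolysosomal copper transporter CTR2, was at 14.3 and 12.2 CPM untreated and 84.6 and 89.6 CPM with LPS. The LPS mean was 6.53 times the untreated mean, with no overlap, the second largest rise among the members (log2 fold change 2.71 ± 0.14, edgeR adjusted p = 1.18e-21). Its start window, shown above, held none of the motifs searched. Slc31a1, the plasma membrane copper importer CTR1, was at 45.1 and 45.3 CPM untreated and 84.6 and 79.8 CPM with LPS and rose less (log2 fold change 0.86 ± 0.12, edgeR adjusted p = 4.21e-08).

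Zinc carriers of the Slc30 family move zinc out of the cytosol, into vesicles or out of the cell. Of 6 tested 4 rose and 1 fell, where 26.6% of all genes tested rose and 25.3% fell. Slc30a1, the plasma membrane zinc exporter whose transcription is known to follow zinc, was at 12.8 and 11.7 CPM untreated and 42.3 and 34.3 CPM with LPS. Both LPS values exceeded both untreated values, by 3.09-fold on the means (log2 fold change 1.63 ± 0.18, edgeR adjusted p = 5.82e-11). Slc30a4, found on endosomes and shown above with 2 metal response element matches, was at 67.1 and 55.3 CPM untreated and 96.0 and 72.9 CPM with LPS and rose (log2 fold change 0.45 ± 0.13, edgeR adjusted p = 0.00333). The Golgi carriers Slc30a7 and Slc30a6 rose at log2 fold changes of 0.46 and 0.52. Slc30a5, which pairs with Slc30a6 in the early secretory pathway, was at 219 and 212 CPM untreated and 130.3 and 152 CPM with LPS and fell (log2 fold change -0.60 ± 0.09, edgeR adjusted p = 4.94e-07). Slc30a9 did not pass at 0.12. The rise of Slc30a4 was lost in 4 alternatives (adjusted p = 0.538 with library size only, 0.158 with GC-corrected offsets, 0.114 without untreated replicate 2 and 0.115 without LPS replicate 1), that of Slc30a6 in 3 (adjusted p = 0.369 with library size only, 0.0662 with DESeq2 and 0.147 without untreated replicate 2) and that of Slc30a7 in 2 (adjusted p = 0.534 with library size only and 0.0511 with GC-corrected offsets).

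The Slc39 family brings zinc, and in part iron and manganese, into the cytosol. Of its 11 members 3 rose, 2 fell and 6 did not pass, where 26.6% of all genes tested rose and 25.3% fell. Slc39a1, a plasma membrane zinc importer, was at 186 and 185 CPM untreated and 271 and 317 CPM with LPS. The groups did not overlap (log2 fold change 0.66 ± 0.09, edgeR adjusted p = 2.15e-08), and its printed window holds an NF-kB match just after the start. Slc39a2 was at 16.4 and 17.9 CPM untreated and 28.1 and 37.3 CPM with LPS and rose (log2 fold change 0.94 ± 0.17, edgeR adjusted p = 9.97e-06), and its exons overlap Mettl17. Slc39a11 rose by 0.47 on the log2 scale. Slc39a14, a zinc and iron importer, was at 36.3 and 41.6 CPM untreated and 29.5 and 25.5 CPM with LPS and fell (log2 fold change -0.50 ± 0.15, edgeR adjusted p = 0.00475), and Slc39a7, which releases zinc from the endoplasmic reticulum, was at 10.1 and 13.3 CPM untreated and 6.58 and 7.89 CPM with LPS and fell (log2 fold change -0.67 ± 0.27, edgeR adjusted p = 0.0336). These 3 calls depend on the setting: Slc39a11 lost its call in 4 alternatives (adjusted p = 0.511 with library size only, 0.083 with DESeq2, 0.158 without untreated replicate 2 and 0.0597 without LPS replicate 2), Slc39a14 in 3 (adjusted p = 0.101 with DESeq2, 0.0963 without untreated replicate 2 and 0.0597 without LPS replicate 2) and Slc39a7 in 4 (adjusted p = 0.243 with DESeq2, 0.283 with GC-corrected offsets, 0.268 without untreated replicate 2 and 0.141 without LPS replicate 1). Slc39a10, another plasma membrane importer, was at 218 and 213 CPM untreated and 210.0 and 203 CPM with LPS and did not pass (log2 fold change -0.06 ± 0.09, edgeR adjusted p = 0.577).

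Metallothioneins, which bind zinc and copper in the cytosol, and the zinc-sensing factor Mtf1 were read beside the carriers. Mt1 was at 155 and 157 CPM untreated and 79.0 and 72.9 CPM with LPS and fell (log2 fold change -1.04 ± 0.10, edgeR adjusted p = 3.65e-12), and Mt2 was at 15.1 and 14.4 CPM untreated and 5.54 and 3.64 CPM with LPS and fell (log2 fold change -1.70 ± 0.29, edgeR adjusted p = 2.09e-06). Slc30a1 and both copper carriers were thus higher in the libraries in which the metallothionein transcripts were lower. Mtf1 was at 19.9 and 17.9 CPM untreated and 22.2 and 19.1 CPM with LPS and did not pass (log2 fold change 0.12 ± 0.19, edgeR adjusted p = 0.617).

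Magnesium and haem carriers complete the class. Slc41a2, a magnesium transporter, was at 14.2 and 12.4 CPM untreated and 35.7 and 42.5 CPM with LPS and rose 2.94-fold without overlap (log2 fold change 1.56 ± 0.17, edgeR adjusted p = 9.8e-11). Its paralogs Slc41a1 and Slc41a3 did not pass, at -0.35 and -0.42. Slc48a1, which moves haem out of phagolysosomes, was at 129.9 and 159 CPM untreated and 169 and 168 CPM with LPS and did not pass, at adjusted p = 0.0524 in edgeR. With GC-corrected offsets Slc48a1 passed as higher (log2 fold change 0.49, edgeR adjusted p = 1.51e-05). By counts the class had 10 rises (43.5%, all genes 26.6%), 3 falls (13.0%, all genes 25.3%) and 10 genes that did not pass. Its median log2 fold change was 0.16. With library size only 6 members of the class rose, where 13.8% of all genes tested did. With GC-corrected offsets 10 did, against 26.6% of all genes. Slc48a1 and Slc39a13 were among these 10, and Slc30a4 and Slc30a7 were not.

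**Figure D3:**
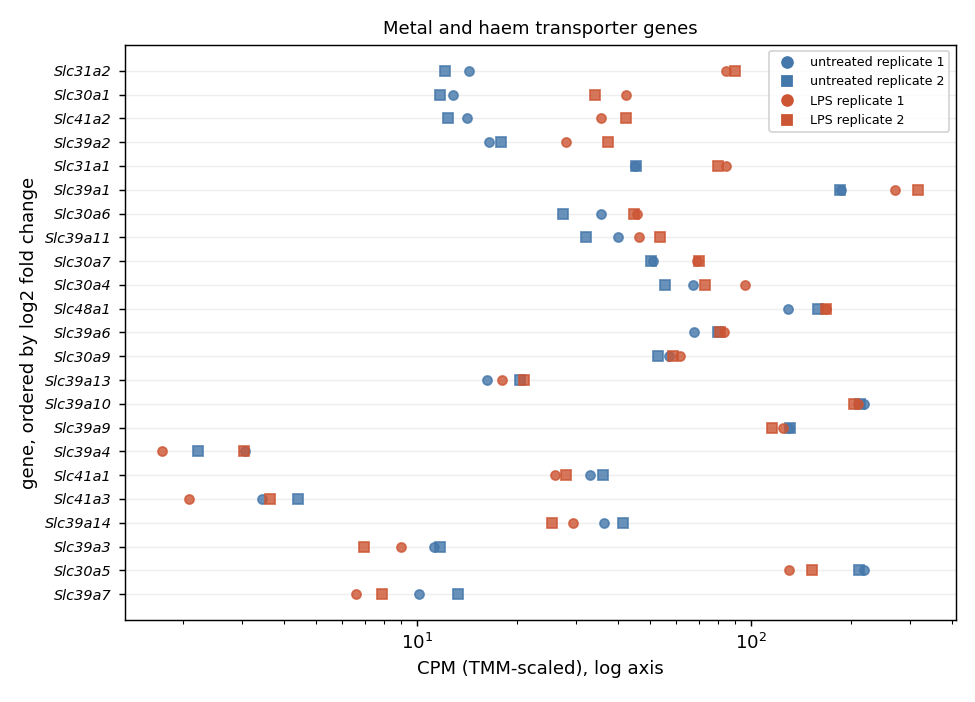
CPM of the 23 metal and haem transporter genes in each library (log axis), ordered by log2 fold change; circles are replicate 1, squares replicate 2, blue untreated and orange LPS. Slc31a2, Slc30a1 and Slc41a2 at the top are the 3 genes of the class that rose at least 2-fold, and the rest lie closer together.

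Mitochondrial carriers of the Slc25 family link the matrix to the cytosol. Slc25a5, the ADP/ATP carrier ANT2, was at 1135 and 1137 CPM untreated and 794 and 845 CPM with LPS. Both LPS libraries were below both untreated ones (log2 fold change -0.47 ± 0.08, edgeR adjusted p = 2.18e-06). Per kilobase of its longest transcript it stood highest of all members, at 916 CPM in untreated and 661 CPM in LPS cells, against 144 and 155 CPM per kilobase for the other adenine nucleotide carrier, Slc25a4. Slc25a4 itself was at 273 and 282 CPM untreated and 276 and 319 CPM with LPS and did not pass (log2 fold change 0.10 ± 0.09, edgeR adjusted p = 0.339). Slc25a3, which imports phosphate for ATP synthesis, was at 283 and 270.03 CPM untreated and 160.5 and 144 CPM with LPS and fell to 55.0% (log2 fold change -0.86 ± 0.09, edgeR adjusted p = 3.36e-11).

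Slc25a37, mitoferrin 1, which delivers iron to the matrix, was at 13.0 and 11.7 CPM untreated and 44.7 and 38.9 CPM with LPS. The LPS mean was 3.35 times the untreated mean, the groups apart (log2 fold change 1.75 ± 0.17, edgeR adjusted p = 2.99e-12). The second mitoferrin, Slc25a28, was at 18.4 and 23.4 CPM untreated and 17.3 and 18.8 CPM with LPS and did not pass (log2 fold change -0.20 ± 0.19, edgeR adjusted p = 0.401). Slc25a38, a glycine carrier used for haem synthesis, was at 12.8 and 14.6 CPM untreated and 20.4 and 20.6 CPM with LPS and rose (log2 fold change 0.59 ± 0.20, edgeR adjusted p = 0.0112), a call lost in 3 alternatives (adjusted p = 0.335 with library size only, 0.156 with DESeq2 and 0.124 without untreated replicate 1). Slc25a39, a carrier needed for mitochondrial glutathione, was at 254 and 284 CPM untreated and 125 and 141 CPM with LPS and fell to 49.6% without overlap (log2 fold change -1.01 ± 0.10, edgeR adjusted p = 7.99e-13). Its close relative Slc25a40 was at 2.49 and 3.98 CPM untreated and 3.12 and 2.13 CPM with LPS and did not pass (log2 fold change -0.29 ± 0.46, edgeR adjusted p = 0.612).

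The calcium-regulated ATP-Mg/phosphate carriers split. Slc25a23 was at 44.8 and 51.5 CPM untreated and 21.5 and 22.8 CPM with LPS and fell (log2 fold change -1.11 ± 0.15, edgeR adjusted p = 2.47e-08). Slc25a24 was at 56.4 and 51.8 CPM untreated and 79.7 and 77.1 CPM with LPS and rose (log2 fold change 0.53 ± 0.12, edgeR adjusted p = 0.000194), and Slc25a25 was at 31.0 and 31.0 CPM untreated and 60.6 and 54.0 CPM with LPS and rose (log2 fold change 0.88 ± 0.13, edgeR adjusted p = 2.42e-07). The rise of Slc25a24 was lost in 1 alternative (adjusted p = 0.248 with library size only).

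The dicarboxylate carrier Slc25a10 was at 142 and 149 CPM untreated and 83.2 and 86.8 CPM with LPS and fell (log2 fold change -0.77 ± 0.10, edgeR adjusted p = 9.59e-09). The glutamate carrier Slc25a22 fell to 59.3% of its untreated mean and the aspartate/glutamate carrier Slc25a12 to 76.0%, at adjusted p = 4.02e-05 and 0.000898 in edgeR. Slc25a13, the second aspartate/glutamate carrier, was at 86.6 and 79.0 CPM untreated and 84.2 and 85.0 CPM with LPS and did not pass. Slc25a20, which exchanges carnitine and acylcarnitine for fatty acid oxidation, was at 11.9 and 12.8 CPM untreated and 4.85 and 9.41 CPM with LPS, and the ornithine carrier Slc25a15 was at 17.6 and 19.7 CPM untreated and 16.6 and 7.89 CPM with LPS. Within each of these last 2 genes the LPS libraries differed widely from each other, and both passed in edgeR at adjusted p = 0.0179 and 0.027. The log2 fold change of Slc25a15 was -0.63, and -1.23 without LPS replicate 1. The call was lost in 3 alternatives for Slc25a20 (adjusted p = 0.185 with DESeq2, 0.074 without untreated replicate 2 and 0.291 without LPS replicate 1) and for Slc25a15 (adjusted p = 0.217 with DESeq2, 0.0881 without untreated replicate 2 and 0.623 without LPS replicate 2). Slc25a45 fell at -0.39, lost in 5 alternatives (adjusted p = 0.28 with DESeq2, 0.327 with GC-corrected offsets, 0.158 without untreated replicate 1, 0.126 without untreated replicate 2 and 0.306 without LPS replicate 1). Slc25a42, which brings coenzyme A into the matrix, was low at 5.16 and 6.86 CPM and fell to 2.43 and 1.82 CPM (log2 fold change -1.49 ± 0.42, edgeR adjusted p = 0.00253), a call lost in 1 alternative (adjusted p = 0.0833 with DESeq2). The citrate carrier Slc25a1 and the oxoglutarate carrier Slc25a11 did not pass, at -0.21 and 0.01, nor did the NAD carrier Slc25a51 at -0.33. Slc25a17, the family's peroxisomal member, was at 54.7 and 48.2 CPM untreated and 79.0 and 89.9 CPM with LPS and rose (log2 fold change 0.71 ± 0.12, edgeR adjusted p = 2.28e-06).

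**Figure D4:**
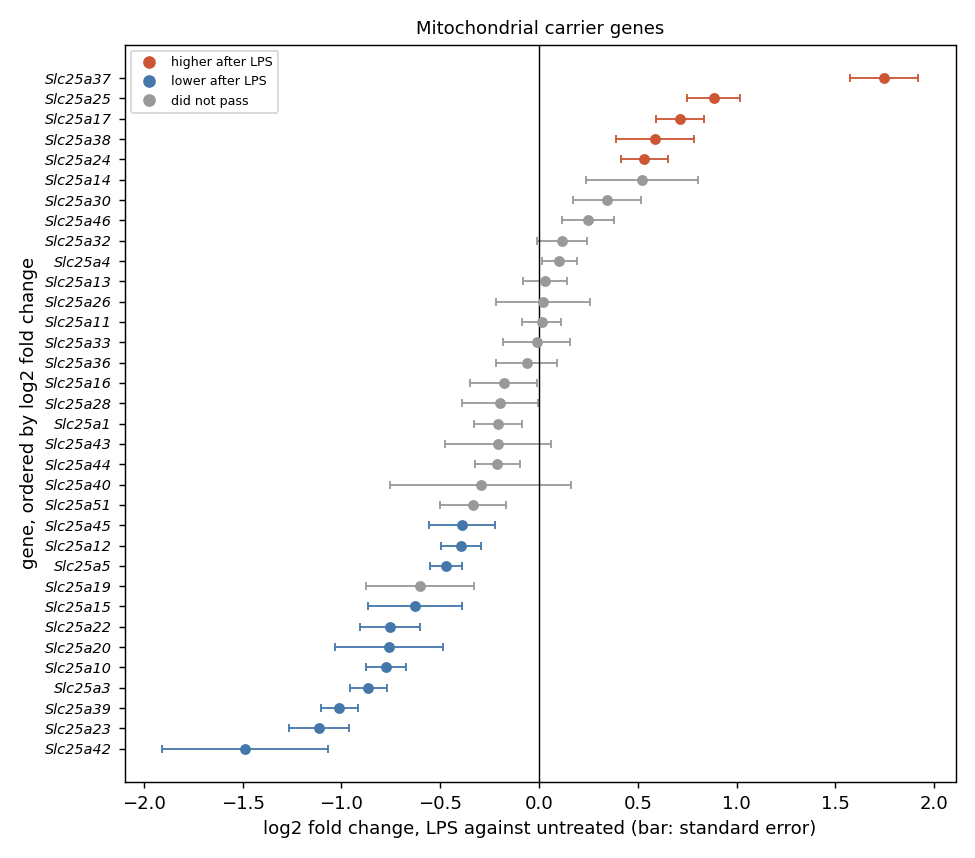
Log2 fold change (LPS against untreated, horizontal axis) with its standard error (bar) for the 34 mitochondrial carrier genes, ordered from the largest fall at the bottom; orange rose, blue fell, grey did not pass at an edgeR adjusted p below 0.05. Slc25a37 at 1.75 is the largest rise and Slc25a42 at -1.49 the largest fall, with a wide bar of 0.42.

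Of 12 tested carriers of nucleosides, vitamins and choline 4 fell at least 2-fold, where 7.73% of all genes tested did. Slc52a2, a riboflavin transporter, was at 66.2 and 74.1 CPM untreated and 20.8 and 27.6 CPM with LPS and fell to 34.9% (log2 fold change -1.52 ± 0.14, edgeR adjusted p = 1.14e-12). Slc5a6, the sodium-coupled transporter of biotin and pantothenate, was at 50.3 and 50.2 CPM untreated and 19.1 and 19.4 CPM with LPS and fell (log2 fold change -1.38 ± 0.15, edgeR adjusted p = 1.12e-10). The equilibrative nucleoside transporter Slc29a2 (ENT2) was at 33.5 and 32.7 CPM untreated and 13.5 and 11.2 CPM with LPS and fell (log2 fold change -1.43 ± 0.19, edgeR adjusted p = 7.18e-09), and the lysosomal ENT3, Slc29a3, fell to 65.3% (log2 fold change -0.61 ± 0.15, edgeR adjusted p = 0.000446). Slc29a1 (ENT1), at 237 and 253 CPM untreated and 217 and 256 CPM with LPS, did not pass (log2 fold change -0.05 ± 0.09, edgeR adjusted p = 0.686). Slc46a3, a lysosomal carrier, was at 12.8 and 13.5 CPM untreated and 2.43 and 5.46 CPM with LPS and fell (log2 fold change -1.69 ± 0.31, edgeR adjusted p = 8.32e-06), and without LPS replicate 2 its log2 fold change was -2.42.

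Vitamin C and choline transport went partly the other way. Slc23a2, the sodium-coupled ascorbate transporter SVCT2, was at 191 and 189.5 CPM untreated and 362 and 362 CPM with LPS. The values agreed closely within each group and rose 1.90-fold (log2 fold change 0.93 ± 0.09, edgeR adjusted p = 5.81e-13). Of the choline transporter-like genes, Slc44a1 was at 34.6 and 32.5 CPM untreated and 51.3 and 51.0 CPM with LPS and rose (log2 fold change 0.61 ± 0.13, edgeR adjusted p = 0.000173), while Slc44a2 was at 234 and 246 CPM untreated and 153 and 147 CPM with LPS and fell (log2 fold change -0.68 ± 0.09, edgeR adjusted p = 1.78e-08). The folate carriers Slc19a1 and Slc46a1 and the purine base carrier Slc43a3 did not pass, at 0.09, 0.31 and 0.17. The thiamine carrier Slc19a2, with 40 counts in all, was not tested. The rise of Slc44a1 was lost in 1 alternative (adjusted p = 0.133 with library size only). With GC-corrected offsets 4 genes of the class, not 2, rose, and the 6 falls were all kept under all 14 alternatives.

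Sugar carriers were led by Slc2a6, the lysosomal hexose transporter GLUT6, which was at 71.7 and 77.0 CPM untreated and 237 and 260.2 CPM with LPS. Both LPS values were more than 3 times either untreated value (log2 fold change 1.75 ± 0.10, edgeR adjusted p = 6.24e-21). The remaining glucose transporter family members above the threshold were low: Slc2a8 was at 8.99 and 13.0 CPM untreated and 6.58 and 5.77 CPM with LPS and fell (log2 fold change -0.82 ± 0.29, edgeR adjusted p = 0.0147), lost in 4 alternatives (adjusted p = 0.171 with DESeq2, 0.266 with GC-corrected offsets, 0.233 without untreated replicate 2 and 0.083 without LPS replicate 2), and the urate carrier Slc2a9 was at 9.75 and 13.0 CPM untreated and 8.66 and 9.11 CPM with LPS and did not pass. Slc2a5, a fructose carrier known from microglia in tissue, and the glucose carrier Slc2a3 had 1 count each over the 4 libraries. Slc5a3, the sodium-coupled myo-inositol transporter, was at 39.2 and 36.0 CPM untreated and 22.2 and 15.5 CPM with LPS and fell (log2 fold change -1.01 ± 0.17, edgeR adjusted p = 1.82e-06). Its exons overlap Mrps6.

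Of the 4 Slc37 members, classed here with the sugar carriers, 2 fell, 1 rose and 1 did not pass. Over all genes tested 25.3% fell and 26.6% rose. Slc37a4, the partner of glucose-6-phosphatase, was at 31.7 and 36.3 CPM untreated and 23.6 and 17.0 CPM with LPS and fell (log2 fold change -0.75 ± 0.17, edgeR adjusted p = 0.000227). Slc37a1 was at 17.0 and 16.8 CPM untreated and 11.8 and 6.98 CPM with LPS and fell (log2 fold change -0.87 ± 0.24, edgeR adjusted p = 0.00191), lost in 2 alternatives (adjusted p = 0.0744 with DESeq2 and 0.11 without LPS replicate 2). Slc37a2 was at 175 and 149 CPM untreated and 171 and 177 CPM with LPS and did not pass (log2 fold change 0.10 ± 0.09, edgeR adjusted p = 0.383). Slc37a3 was at 10.5 and 11.7 CPM untreated and 19.1 and 17.3 CPM with LPS and rose (log2 fold change 0.71 ± 0.21, edgeR adjusted p = 0.00475). Slc50a1, a SWEET-type sugar carrier, fell to 72.3% (log2 fold change -0.47 ± 0.16, edgeR adjusted p = 0.0104). The rise of Slc37a3 was lost in 3 alternatives (adjusted p = 0.162 with library size only, 0.103 with DESeq2 and 0.0598 without untreated replicate 1), and the fall of Slc50a1 in 4 (adjusted p = 0.146 with DESeq2, 0.109 with GC-corrected offsets, 0.0752 without untreated replicate 2 and 0.0586 without LPS replicate 1).

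Lactate leaves or enters cells through the monocarboxylate transporters. Slc16a1 (MCT1) was at 543 and 527 CPM untreated and 439 and 488 CPM with LPS and Slc16a3 (MCT4) at 237 and 228 CPM untreated and 263 and 294 CPM with LPS. Slc16a1 passed as lower at 86.6% of the untreated mean (log2 fold change -0.21 ± 0.08, edgeR adjusted p = 0.0332) and Slc16a3 as higher (log2 fold change 0.26 ± 0.09, edgeR adjusted p = 0.0117). Both shifts are small. Slc16a1 lost its call in 4 alternatives (adjusted p = 0.102 with DESeq2, 0.222 without untreated replicate 1, 0.119 without untreated replicate 2 and 0.145 without LPS replicate 1), and Slc16a3 in 6 (adjusted p = 0.111 with upper-quartile factors, 0.415 with library size only, 0.064 with DESeq2, 0.0746 without untreated replicate 1, 0.158 without untreated replicate 2 and 0.0995 without LPS replicate 2), turning to a log2 fold change of -0.098 with library size only. Basigin and embigin, the chaperones that bring these carriers to the surface, did not pass: Bsg had a log2 fold change of -0.15 and Emb of 0.05. Slc16a10, which carries aromatic amino acids and thyroid hormones and is classed here with its family, was at 125 and 127 CPM untreated and 256 and 233 CPM with LPS and rose 1.94-fold with groups apart (log2 fold change 0.96 ± 0.09, edgeR adjusted p = 1.59e-12). Slc27a1, a fatty acid transport protein, was at 199 and 202 CPM untreated and 315 and 355 CPM with LPS and rose (log2 fold change 0.74 ± 0.09, edgeR adjusted p = 7.27e-10). Slc27a4 did not pass at -0.37, Slc16a6 rose by 0.41, and Slc16a13 fell (log2 fold change -0.59 ± 0.18, edgeR adjusted p = 0.00493). The call of Slc16a6 was lost in 3 alternatives (adjusted p = 0.765 with library size only, 0.095 with DESeq2 and 0.148 without untreated replicate 2) and that of Slc16a13 in 3 (adjusted p = 0.111 with DESeq2, 0.0959 with GC-corrected offsets and 0.0789 without untreated replicate 1).

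Ion carriers that set pH and volume changed gene by gene. Slc26a11, a sulfate and chloride carrier, was at 15.9 and 14.6 CPM untreated and 1.39 and 2.43 CPM with LPS. Its LPS libraries held 4 and 8 counts, at 12.9% of the untreated mean, the largest fall of any member (log2 fold change -2.96 ± 0.35, edgeR adjusted p = 4.74e-10). Slc4a7, the sodium bicarbonate cotransporter NBCn1 which brings bicarbonate into the cell, was at 51.6 and 51.5 CPM untreated and 116 and 101 CPM with LPS and rose 2.10-fold (log2 fold change 1.07 ± 0.12, edgeR adjusted p = 5.04e-11). The chloride/bicarbonate exchanger Slc4a2 was at 91.0 and 83.4 CPM untreated and 60.3 and 66.5 CPM with LPS and fell (log2 fold change -0.46 ± 0.12, edgeR adjusted p = 0.000888), lost in 1 alternative (adjusted p = 0.437 with GC-corrected offsets). The organelle sodium/proton exchanger Slc9a8 was at 42.6 and 44.2 CPM untreated and 66.2 and 53.7 CPM with LPS and rose (log2 fold change 0.46 ± 0.13, edgeR adjusted p = 0.00254), a call lost in 3 alternatives (adjusted p = 0.531 with library size only, 0.0605 with DESeq2 and 0.074 without LPS replicate 1).

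Potassium-chloride cotransporters let a swollen cell lose salt. Slc12a4 was at 19.1 and 31.0 CPM untreated and 48.9 and 40.4 CPM with LPS and rose (log2 fold change 0.84 ± 0.18, edgeR adjusted p = 0.000515). Slc12a7 did not pass at 0.25, nor did the inward cotransporter Slc12a2 at -0.25. Slc12a9, a related carrier, was at 38.4 and 32.1 CPM untreated and 12.8 and 15.2 CPM with LPS and fell (log2 fold change -1.33 ± 0.18, edgeR adjusted p = 2.04e-08). The phosphate importer Slc20a1, which is also a retrovirus receptor, was at 46.3 and 47.8 CPM untreated and 31.5 and 26.7 CPM with LPS and fell (log2 fold change -0.70 ± 0.14, edgeR adjusted p = 6.43e-05), while its paralog Slc20a2 was at 10.9 and 9.51 CPM untreated and 9.70 and 11.2 CPM with LPS and did not pass. Slc24a5, an intracellular sodium/calcium exchanger best known from melanosomes, was at 237 and 219 CPM untreated and 176 and 167 CPM with LPS and fell (log2 fold change -0.41 ± 0.09, edgeR adjusted p = 0.000152). Exons of Slc24a5 overlap Myef2 on the opposite strand.

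Organic cation and vesicular carriers were few and low. Slc22a4, which carries ergothioneine, was at 4.02 and 1.77 CPM untreated and 8.32 and 10.0 CPM with LPS and rose (log2 fold change 1.62 ± 0.35, edgeR adjusted p = 0.000108). Its untreated counts were 21 and 8, and without untreated replicate 1 the log2 fold change was 2.35. The carnitine carrier Slc22a5 was at 13.96 and 15.0 CPM untreated and 13.5 and 15.5 CPM with LPS and did not pass. Slc18a1, the vesicular monoamine transporter VMAT1, was at 1.91 and 1.77 CPM untreated and 5.198 and 4.86 CPM with LPS, passed as higher in edgeR (log2 fold change 1.43 ± 0.43, edgeR adjusted p = 0.00435) and lost the call in 1 alternative (adjusted p = 0.109 with DESeq2). The vesicular nucleotide carrier Slc17a9 and the lysosomal sialic acid carrier Slc17a5 fell at -0.64 and -0.55, the first lost in 4 alternatives (adjusted p = 0.105 with DESeq2, 0.0845 with GC-corrected offsets, 0.0908 without untreated replicate 1 and 0.0532 without LPS replicate 2) and the second in 3 (adjusted p = 0.179 with DESeq2, 0.0931 without untreated replicate 1 and 0.116 without LPS replicate 2). Slc10a3 and Slc10a7 did not pass. Among 6 carriers of nucleotide sugars and acetyl-CoA, Slc35a3, which brings UDP-N-acetylglucosamine into the Golgi, was at 69.6 and 59.9 CPM untreated and 97.4 and 89.0 CPM with LPS and rose (log2 fold change 0.52 ± 0.12, edgeR adjusted p = 0.000175), a call lost in 2 alternatives (adjusted p = 0.269 with library size only and 0.101 with GC-corrected offsets). Slc35a4, of the same family, was at 194 and 194 CPM untreated and 163 and 187 CPM with LPS and did not pass, and Slc33a1, the acetyl-CoA carrier, did not pass at 0.06.

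The symbol pattern also takes in 4 genes that are not transporters: Slc9a3r1, the scaffold NHERF1, Slc4a1ap, Slc7a6os and Slc2a4rg-ps. Slc9a3r1 was at 64.6 and 67.7 CPM untreated and 101 and 107 CPM with LPS and rose (log2 fold change 0.66 ± 0.11, edgeR adjusted p = 2.01e-06), and Slc4a1ap rose at 0.49, lost in 3 alternatives (adjusted p = 0.487 with library size only, 0.113 with DESeq2 and 0.211 without untreated replicate 2). Without these 4 genes, 36 of 143 transporters rose and 50 fell (25.2% and 35%, against 26.6% and 25.3% of all genes).

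The 26 members changed by at least 2-fold span 7 of the 9 substrate classes. Of these calls 24 were kept under all 14 alternatives, the exceptions being Slc18a1 and Slc25a42 with DESeq2.

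**Figure D5:**
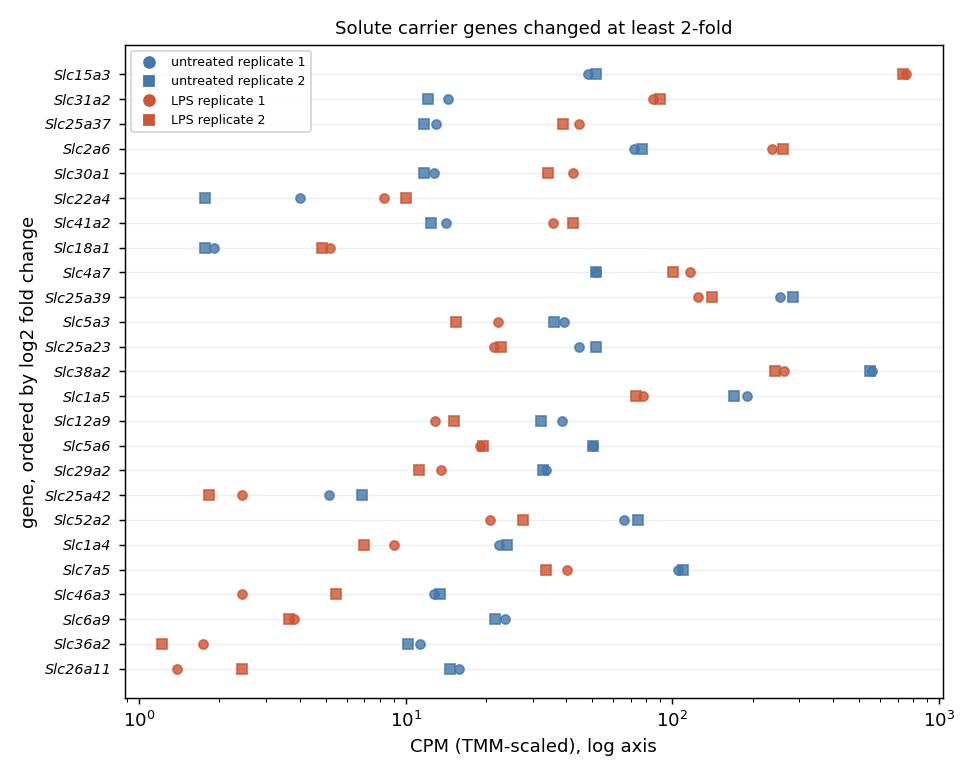
CPM in each library (log axis) of 25 of the 26 members with an edgeR adjusted p below 0.05 and a change of at least 2-fold, ordered by log2 fold change; circles are replicate 1, squares replicate 2, blue untreated and orange LPS. The 9 genes at the top rose, led by Slc15a3, and the 16 below fell, with Slc26a11 lowest.

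Some solute carriers carry other symbols. Of 52 such symbols listed, 49 matched and 35 were tested: 7 rose, 15 fell and 13 did not pass, where 26.6% of all genes tested rose and 25.3% fell. The median log2 fold change was -0.24. Ucp2, the uncoupling-protein relative that exports metabolites from mitochondria, was at 217 and 209 CPM untreated and 55.4 and 52.5 CPM with LPS. It fell without overlap to 25.3% of the untreated mean (log2 fold change -1.98 ± 0.11, edgeR adjusted p = 8.6e-22). Ctns, which exports cystine from lysosomes, was at 40.5 and 42.7 CPM untreated and 14.6 and 13.1 CPM with LPS and fell (log2 fold change -1.59 ± 0.17, edgeR adjusted p = 5.36e-11), and Spns1, a lysosomal lysophospholipid exporter, was at 46.7 and 47.5 CPM untreated and 19.8 and 16.7 CPM with LPS and fell (log2 fold change -1.37 ± 0.16, edgeR adjusted p = 3.3e-10). Mfsd6 was at 64.4 and 60.6 CPM untreated and 24.3 and 28.8 CPM with LPS and fell (log2 fold change -1.23 ± 0.14, edgeR adjusted p = 2.15e-10). The mitochondrial pyruvate carrier subunits differed in call: Mpc1 was at 44.0 and 42.0 CPM untreated and 52.7 and 61.3 CPM with LPS and rose (log2 fold change 0.41 ± 0.13, edgeR adjusted p = 0.00657), a call lost in 4 alternatives (adjusted p = 0.77 with library size only, 0.105 with DESeq2, 0.0893 without untreated replicate 2 and 0.113 without LPS replicate 2), while Mpc2 was at 53.2 and 48.0 CPM untreated and 38.5 and 53.4 CPM with LPS and did not pass. Among genes of the Slc35 family with other letters, Slc35c2 and Slc35e4 fell at -0.87 and -0.85. Slc35b1 rose at 0.44, a call lost in 2 alternatives (adjusted p = 0.605 with library size only and 0.0606 with DESeq2). In the list of 16 partner genes, 12 were tested, of which 4 fell, among them Mt1 and Mt2, and 8 did not pass.

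Levels can be compared between genes only per length. Per kilobase of the longest GENCODE transcript, the highest members in untreated cells after Slc25a5 were Slc25a39 (159.6 CPM untreated, 79.0 CPM with LPS), Slc25a4, Slc3a2 (127 and 162 CPM), Slc16a1 (121 and 105 CPM), Slc24a5 (117 and 87.7 CPM), Slc29a1 (110.5 and 107 CPM) and Slc38a2 (90.8 and 41.4 CPM). With LPS the order was another one, and Slc15a3 (10.3 CPM untreated, 152 CPM with LPS), Slc39a1 (78.5 and 124 CPM), Slc27a1 (62.6 and 105 CPM) and Slc2a6 (27.4 and 91.8 CPM) stood above Slc24a5, Slc25a39 and Slc38a2. At the other end were brain transporters of glutamate: Slc1a2 and Slc1a3 had 1 count each over the 4 libraries, and Slc1a1, Slc17a6 and Slc17a7 had 0. Slc39a8, a zinc importer often studied in inflammation, also had 0 counts.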

How the data were processed

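The authors deposited raw read counts per gene for 4 libraries, with 4 summary lines and 3 count columns (unstranded and 2 strand-specific), which per the file contents follow STAR's gene count layout and were not normalised. Per the labels' protocols, ribosomal RNA was removed before directional libraries were made. Per the submitters' processing notes, STAR 2.5.1, Trimmomatic 0.33, CASAVA 1.8.2 and DESeq2 were used, with hg19 named as build, although symbols and cells are mouse, and the extraction text names human mesenchymal cells. The gene annotation they used is not stated in the sources used here. Coordinates printed come from RefSeq windows (GRCm38.p6), not from these files.

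The reverse-strand column (column 4) was used. Summary lines were left out throughout. All genes kept by edgeR's expression filter (9992 of 12982 with any count) were fitted with edgeR 4.0.16 in R 4.3.3 (TMM scaling, robust quasi-likelihood, two-sided, no covariate beside treatment, 2 residual degrees of freedom), with Benjamini-Hochberg adjustment over all of them and a threshold of 0.05. CPM were computed after TMM scaling. The SE was approximated from the log2 fold change and its quasi-likelihood F. Chi-square per degree of freedom between the libraries of a pair was 1.52 (untreated) and 2.44 (LPS) over genes with at least 20 counts, above sampling noise, so no library was treated as a duplicate of another. This does not show that they are independent cultures. The model was also run on simulated counts in which few genes changed, equally many up and down. In the data far more genes were called, so that run cannot speak to scaling or error rates here.

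The members and lists were chosen with earlier results of these data known. Genes named by rule are members changed at least 2-fold, in each class the 2 with the highest mean CPM and up to 3 called with the smallest p, 4 called genes per list, and those at the count threshold. All others were named after their values were seen. The 14 alternatives were RLE, upper-quartile and library-size scaling, DESeq2 1.42.0, all genes with at least 1 count, unstranded counts, CPM of at least 1 in 2 libraries, GC-corrected offsets, a replicate block, removal of 5 abundant entries (Lars2, Rn45s, Rmrp, Rpph1 and Mir6236) and leaving out each library. GC content and lengths are those of the longest GENCODE vM21 transcript of a symbol. A few genes counted in the totals are not reported here by name.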

Additional observations from a re-analysis of the deposited data

Results flagged for a closer look

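The opposite-strand column of the count files, which the comparisons do not use, held 34162 to 52705 counts per library. The column used held 3256197 to 4502105. Members with opposite-strand counts include some without an overlapping gene, such as Slc18a1 (32 counts, 49 on its own strand). In the opposite-strand column Slc15a3 had 7 and 2 counts untreated and 9 and 21 counts with LPS. Its log2 fold change there was 2.26 (edgeR adjusted p = 0.00483 over 757 genes tested in that column). Summed over the libraries it had 39 counts there and 5058 on its own strand, where it also rose. Exons of Tmem132a lie opposite Slc15a3. Slc24a5 had 74 and 68 counts untreated and 112 and 143 with LPS, a log2 fold change of 1.40 (edgeR adjusted p = 6.45e-06), and Myef2 lies opposite. On its own strand Slc24a5 fell. Slc43a2, with Gm45606 opposite, was lower in that column, at 22 and 22 counts untreated and 5 and 6 with LPS (log2 fold change -1.42, edgeR adjusted p = 0.031). Of the genes tested in that column, 10 carry a symbol that matches the solute carrier pattern, and the other 7 did not pass. Whether these reads come from the neighbouring genes or from the members' own transcripts was not tested.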

How the results depend on the processing

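Counts of members that rose ran from 21 to 40 and of those that fell from 33 to 76 over the 14 alternatives. With library size only, 21 members rose and 76 fell, where 13.8% of all genes tested rose and 47.8% fell. Rises then numbered 3 among amino acid, 2 among inorganic ion, 6 among metal, 3 among mitochondrial, 1 among vitamin, 0 among nucleotide sugar, 2 among organic acid and 1 among sugar carriers, and falls 7 among metal, 21 among mitochondrial and 2 among nucleotide sugar carriers. In that setting the list under other symbols (35 tested) had 0 rises and 24 falls, and the partner list (12 tested) 9 falls. With DESeq2, 33 members fell, where 18.4% of all genes tested rose and 14.9% fell. Rises were then 3 among inorganic ion, 2 among organic acid, 1 among organic ion and 1 among sugar carriers and 2 in the list under other symbols. Falls with DESeq2 were 1 among metal, 7 among mitochondrial, 0 among organic acid, 0 among organic ion and 2 among sugar carriers. Upper-quartile scaling gave 5 falls among metal carriers and 1 among nucleotide sugar carriers. The share over all genes tested is not given here for that scaling. GC-corrected offsets gave 4 rises among vitamin and 0 among nucleotide sugar carriers, and falls of 1 among organic acid, 1 among organic ion and 3 among sugar carriers. With those offsets 26.6% of all genes tested rose and 22.7% fell. The cause was not tested for any of these.

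Leaving out each library in turn gave 33 to 39 rises and 39 to 45 falls over the members. By class the range was 1 to 3 falls for metals (1 without untreated replicate 2), 4 to 8 rises for mitochondrial carriers (8 without LPS replicate 1) and 0 to 1 falls for nucleotide sugars (1 without LPS replicate 2). It was 2 to 4 rises and 0 to 2 falls for organic acids, 0 to 2 falls for organic ions, 1 to 2 rises and 3 to 5 falls for sugars, and 4 to 6 rises for the list under other symbols. Removal of untreated replicate 1 gave the 0 falls of organic acids, the 0 falls of organic ions (as did LPS replicate 2) and the single sugar rise. Untreated replicate 2 gave 2 rises of organic acids, 3 sugar falls and 4 rises in that list, and LPS replicate 2 gave the same 3 and 4. A group left with 1 library is assumed to vary like the other. Shares over all genes tested are not given here for these fits.

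Genes that turned sign were mostly ones that did not pass. With library size only the log2 fold changes were -0.24 for Slc10a3, -0.14 for Slc10a7, -0.098 for Slc16a3, -0.26 for Slc25a4, -0.26 for Slc37a2 and -0.35 for Slc7a6os. GC-corrected offsets gave 0.19 for Slc29a1, 0.11 for Slc35a4 and -0.079 for Slc7a6os, and for Slc7a6os upper-quartile scaling gave -0.0862 and testing all genes with at least 1 count -0.013. Leave-one-out ranges were -0.00779 to 0.20 for Slc25a4, -0.17 to 0.064 for Slc29a1, -0.013 to 0.22 for Slc37a2 and -0.13 to 0.15 for Slc7a6os. Several genes that did not pass were called in an alternative. Slc25a4 passed as higher with GC-corrected offsets and as lower with library size only (edgeR adjusted p = 0.0189 and 0.0229). Slc29a1, Slc35a4, Slc37a2, Slc39a10 and Slc7a6os passed as lower with library size only, where 47.8% of all genes tested fell. Slc35a4 passed as lower with upper-quartile factors, and Slc39a10 with GC-corrected offsets (edgeR adjusted p = 0.0236 and 0.0392). Not all such genes are listed.

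Same-numbered libraries did not deviate together (correlation -0.044), so replicate numbers were read as names only. With the replicate block 39 members rose and 50 fell, and no class count moved by over 1.5 times. Genes with a few counts per library, such as Slc18a1 and Slc36a2, are limited by depth.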
